A study of Mus musculus with 9 samples.

Results

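Q-VD-OPH (OPH) and Z-VAD-FMK (FMK), 2 broad caspase inhibitors, were compared at equal dose in micromass cultures of mouse limb cells. The comparison used 6 of the 9 libraries of the series, the 3 cultures given each inhibitor at 100 µM for 6 days, and was made across all genes, of which 12743 of the 52550 listed had enough counts to test. The vehicle libraries (DMSO) were not used, so every difference below is one inhibitor against the other and not against an untreated culture. Cells came from forelimbs of embryos at embryonic day 12, were plated as dense drops in medium that supports cartilage formation, and were left to attach until the next morning before the inhibitors were added, with medium and inhibitor renewed on alternate days. No strain, sex or genotype is given in the labels. In the labels the 3 cultures of a group are biological replicates, with nothing on what a replicate number shares across groups, so p-values measure the spread between these samples.

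Caspases are proteases that cut after aspartate and carry out apoptosis, and some of them process inflammatory cytokines or hold back necroptosis, a lytic form of cell death driven by the kinase RIPK3 and its target MLKL. Both compounds bind the active cysteine of caspases irreversibly. Z-VAD-FMK has a valine, alanine and aspartate backbone with a benzyloxycarbonyl cap and a fluoromethyl ketone warhead, and Q-VD-OPH has a valine and aspartate backbone with a quinoline cap and a difluorophenoxymethyl ketone warhead. Only 1 pair of compounds was compared, so no adjustment over pairs was needed. In limb micromass cultures mesenchymal cells condense and form nodules of cartilage, which make collagen II and aggrecan, among cells that stay fibroblastic or belong to other lineages.

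Library totals were 5659789 to 6867350 counts, with 16588 to 17631 genes detected, 9.54% to 12.9% of counts in the 10 most abundant genes of a library and 1.65% to 2.24% in genes of the mitochondrial genome. The cultures are labelled chondroblasts, and the cartilage genes Col2a1, Acan and Sox9 were present in all 6 libraries, beside transcripts of macrophages, adipocytes and muscle. The first principal component held 46.6% of the variance and separated the inhibitors. The next, with 20.3%, set replicate 3 of both groups apart from the others. The root mean square log2 distance was 0.454 to 0.558 between FMK libraries, 0.467 to 0.488 between OPH libraries and 0.602 to 0.723 between the groups. Values in the text are counts per 1000000 (CPM) relative to a library size scaled by TMM, given for replicates 1, 2 and 3 in that order, first with FMK and then with OPH. A count stands for a 3′ transcript end. Levels are compared between libraries and, apart from grouping genes by mean CPM, not between genes. A value ± SE in brackets is the log2 fold change of Q-VD-OPH over Z-VAD-FMK, which is negative where the level was lower with Q-VD-OPH.

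Of the 12743 genes, 1163 (9.13%) differed between the inhibitors at an adjusted p under 0.05, by edgeR's quasi-likelihood test with Benjamini-Hochberg adjustment, which is what "called" means below, and adjusted p-values are from this test unless another is named. With Q-VD-OPH 519 genes were higher (4.07%) and 644 lower (5.05%), and the difference was at least 2-fold for 187 (1.47%) and 144 (1.13%) of these. Libraries of the groups did not overlap for 1157 of the called genes, among them every called gene whose levels are given below, where over all genes tested 13.5% were higher and 13.8% lower in every OPH library than in every FMK library. The 95% interval of the fold change lay inside 2-fold in either direction for 9379 genes (73.6%), while for 2842 genes the test made no call and the interval reached beyond 2-fold. Pou2f2, a transcription factor gene of B cells and some myeloid cells, had 0 counts with Z-VAD-FMK and 90 with Q-VD-OPH, at least 26.5-fold higher against a floor of 3 counts over the FMK group (adjusted p = 0.000472). It had enough counts to test only through the OPH libraries, so its direction was fixed by that. The share called was 5.25% of 2020 genes below a mean of 5 CPM and 30.1% of the 236 genes at 500 CPM or more. With library size alone in place of TMM, the median difference of all genes moved to 0.11 (log2) and the share of calls that were higher went from 44.6% to 71.8%, so differences are relative to the TMM scaling. With the replicate number as a block 2159 genes (16.9%) were called, 953 higher (7.48%) and 1206 lower (9.46%), among them 1161 of the 1163. With 1 library left out, and so fewer degrees of freedom, the count of called genes was 639 without FMK replicate 1, 631 without FMK replicate 2, 1216 without FMK replicate 3, 723 without OPH replicate 1, 504 without OPH replicate 2 and 910 without OPH replicate 3. Other fits named below are this block, other tools and settings, and fits with 1 library left out. Their adjusted p or count is given only where it changes the call or moves the count by over 1.5 times, and not every such move is given.

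**Figure D1:**
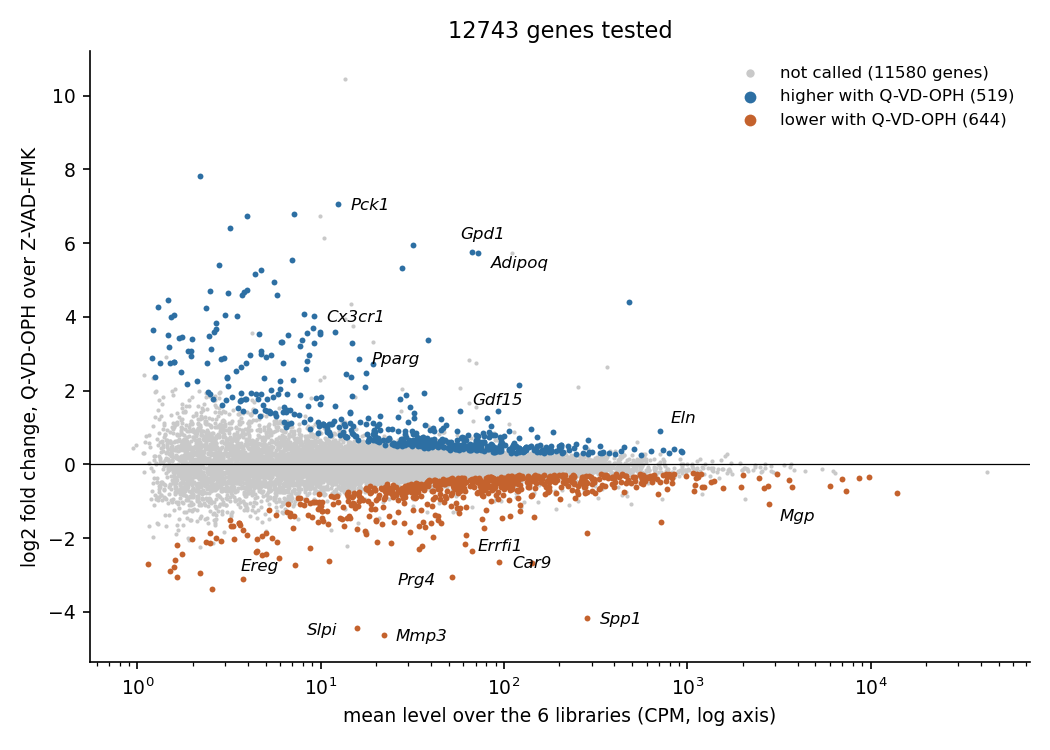
Log2 fold change of Q-VD-OPH over Z-VAD-FMK (vertical axis) against the mean level over the 6 libraries (horizontal axis, CPM, log scale) for each of the 12743 genes tested, with the 519 genes called higher in blue, the 644 called lower in orange and the others in grey. Among called genes the lowest points are Mmp3, Slpi and Spp1. The 2 tested genes with 0 counts in the FMK libraries, Pou2f2 and Cidec, stand at their fitted value, which is no bound.

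Transcripts of macrophages were higher with Q-VD-OPH in all 3 libraries. Of 23 markers, 21 were tested, 17 were called higher and 0 lower, beside 4.07% higher and 5.05% lower over all genes. Markers with few FMK counts, such as Ptprc, Tyrobp and Cx3cr1, passed the low-count filter only through their OPH libraries. A call lower was hardly possible for these, so the counts lean to higher and are a description only. The median log2 fold change was 2.99, beside a median of 0.00 over all genes tested, and 1 of the 21 was below 0. The count called lower was 1 with the replicate block, without a low-count filter, without FMK replicate 3 and in the libraries numbered 1 and 2. Cx3cr1, the fractalkine receptor gene of tissue macrophages (ENSMUSG00000052336, chromosome 9, 119901616 to 120069879, minus strand), was at 0.486, 1.53 and 1.10 CPM with FMK and 14.4, 17.6 and 20.0 CPM with OPH. The OPH libraries were 14.4 CPM or more and the FMK libraries 1.53 or less (log2 fold change 4.03 ± 0.36, adjusted p = 8.86e-06). The growth factor receptor gene Csf1r, on which macrophage survival depends, was at 0.324, 2.15 and 2.01 CPM with FMK and 16.9, 16.2 and 21.7 CPM with OPH (3.60 ± 0.40, adjusted p = 7.8e-05). Tyrobp, a signalling adaptor gene of myeloid cells, was at 0.648, 1.07 and 1.46 CPM with FMK and 10.7, 13.7 and 12.2 CPM with OPH (3.51 ± 0.37, adjusted p = 3.43e-05). For all 3 genes the groups were far apart against the spread within them. Fcer1g, its partner adaptor gene, was higher by 3.58 ± 0.32 and Ctss, a cathepsin gene of antigen-presenting cells, by 2.38 ± 0.23 on the log2 scale. Ptprc, the pan-leukocyte gene for CD45, had 2 counts over the FMK libraries and 113 over the OPH libraries, or 49.9 (95% counting interval 13.5 to 417) times the level per count sequenced. The complement genes C1qa, C1qb and C1qc, made by macrophages, were higher by 3.30, 3.29 and 2.96. Mrc1, the mannose receptor gene, was below the filter with 0, 3 and 0 counts with Z-VAD-FMK and 9, 19 and 5 with Q-VD-OPH. Summed over the list the level was 87.5 to 113 CPM with Z-VAD-FMK and 303 to 351 CPM with Q-VD-OPH, and no marker was at 0 in either group. In bulk RNA, fewer cells of a type and less RNA per cell cannot be told apart.

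Transcripts of adipocytes were also higher with Q-VD-OPH, with a spread between libraries that left several calls near the threshold. All 15 tested markers had a positive log2 fold change (median 4.05) and 8 were called, beside 4.07% called higher over all genes. Markers with few or no FMK counts, such as Plin1 and Cidec, passed the low-count filter only through their OPH libraries. A negative value was hardly possible for these. Adipoq, the gene of the hormone adiponectin (ENSMUSG00000022878, chromosome 16, 23146536 to 23158028, plus strand), was at 2.27, 3.83 and 1.83 CPM with FMK and 175, 213 and 39.4 CPM with OPH. OPH replicate 3 was well below the other two, though still above every FMK library (5.72 ± 1.00, adjusted p = 0.0444). Pparg, the master regulator gene of fat cells, was at 4.38, 4.29 and 3.10 CPM with FMK and 35.1, 35.2 and 14.9 CPM with OPH (2.84 ± 0.35, adjusted p = 0.000703). Cebpa, its partner, was at 12.5, 18.7 and 14.4 CPM with FMK and 64.4, 72.0 and 38.5 CPM with OPH (1.94 ± 0.25, adjusted p = 0.00154). Both show the same low OPH replicate 3. Pck1, an enzyme gene of glyceride and glucose synthesis, had 3 counts with Z-VAD-FMK and 517 with Q-VD-OPH, or 152 (95% counting interval 51.7 to 739.6) times the level. Of the lipid droplet genes, Plin1 was at 1.296, 0.920 and 0.730 CPM with FMK and 73.7, 94.4 and 19.9 CPM with OPH (5.96 ± 0.98, adjusted p = 0.0361). The lipase gene Lpl was at 116, 121 and 64.6 CPM with FMK and 744, 854 and 295 CPM with OPH and was not called (2.65 ± 0.55, adjusted p = 0.0687). For Lpl other fits gave adjusted p = 0.0167 without OPH replicate 3, 1.93e-13 with the replicate block, 1.73e-05 with DESeq2 and 2.5e-10 in the libraries numbered 1 and 2. Cidec, another droplet gene, had 0 counts in the FMK libraries and 573 in the OPH libraries, at least 169-fold higher against the same floor, and was not called (adjusted p = 0.119). Lep and Ucp1, below the filter, were at 0 in the FMK libraries. In the OPH libraries Lep had 1, 1 and 2 counts and Ucp1 had 22, 32 and 0. The list summed to 163 to 264 CPM with Z-VAD-FMK and to 886 (OPH replicate 3), 2739 and 3551 CPM with Q-VD-OPH. Its count of calls was 1 with all 9 libraries in the fit, 3 with limma-voom, 4 without FMK replicate 1 or 2, 5 without FMK replicate 3 or OPH replicate 1 or 2, 13 with the replicate block, 14 with DESeq2 and in the libraries numbered 1 and 2 and 15 without OPH replicate 3. For Pparg other fits gave adjusted p = 0.0573 with all 9 libraries in the fit and 0.057 with limma-voom. For Plin1 they gave adjusted p = 0.0554 to 0.144 without FMK replicate 1, 2 or 3 or OPH replicate 1 or 2, 0.0571 with all 9 libraries in the fit, 0.377 with limma-voom and 0.0533 without a low-count filter. For Adipoq they gave adjusted p = 0.12 to 0.166 without FMK replicate 1, 2 or 3 or OPH replicate 1 or 2, 0.0517 with all 9 libraries in the fit, 0.368 with limma-voom and 0.0609 without a low-count filter. For Pck1 they gave adjusted p = 0.0633 to 0.0805 without FMK replicate 1, 2 or 3, 0.0674 with all 9 libraries in the fit and 0.153 with limma-voom.

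Markers of muscle and of other lineages gave no calls or few. Over all genes 4.07% were called higher and 5.05% lower, and with the replicate block 7.48% higher and 9.46% lower. None of 23 skeletal muscle markers was called, though 21 were above 0 (median 0.76) and 12 were called higher with the block. The median was 0.35 without FMK replicate 1, 1.39 without FMK replicate 3 and 0.068 without OPH replicate 3. Myog, the gene of the muscle regulator myogenin, was at 1.94, 8.58 and 21.7 CPM with FMK and 11.6, 18.0 and 32.1 CPM with OPH. Library 3 was highest in both groups and each OPH library exceeded its FMK library of the same number (adjusted p = 0.634, and 0.003 with the block). The list's mean log2 level differed by 1.25, 0.50 and 0.53 within numbers 1, 2 and 3. The count was 1 in the libraries numbered 1 and 2 and without FMK replicate 3 or OPH replicate 1, 2 with DESeq2, 4 without a low-count filter and 12 with the replicate block. Of 11 smooth muscle and myofibroblast markers none was called, with 10 below 0. The count called lower was 1 with DESeq2, without a low-count filter and without FMK replicate 3 or OPH replicate 3, 3 in the libraries numbered 1 and 2 and 5 with the replicate block. Acta2, smooth muscle actin, was at 957, 1090 and 2534 CPM with FMK and 746, 719 and 1176 CPM with OPH (95% interval of the log2 fold change -2.16 to 0.57, adjusted p = 0.458, and 0.00248 in the libraries numbered 1 and 2). Pecam1, an endothelial gene, had 5, 0 and 0 counts with Z-VAD-FMK and 0 with Q-VD-OPH, and Emcn and Tie1 were at 0 in both groups. Kdr and Esam, also below the filter, went the other way. Kdr had 5, 4 and 3 counts with Z-VAD-FMK and 19, 21 and 5 with Q-VD-OPH. Esam had 1, 1 and 0 counts with Z-VAD-FMK and 4, 5 and 2 with Q-VD-OPH. Of the endothelial list 2 genes were tested and neither was called, with both below 0 (median -1.27). Plvap, a gene of endothelial vesicles, was at 21.1, 23.6 and 8.58 CPM with FMK and 6.34, 6.89 and 2.03 CPM with OPH, without overlap (-1.79 ± 0.51, adjusted p = 0.0776). For Plvap other fits gave adjusted p = 0.0414 with all 9 libraries in the fit, 7.39e-07 with the replicate block, 0.00035 with DESeq2, 1.16e-08 without a low-count filter, 0.00448 without FMK replicate 3 and 0.000412 in the libraries numbered 1 and 2. Egfl7, a secreted protein gene of vessels, was at 13.1, 8.43 and 17.2 CPM with FMK and 5.92, 7.74 and 9.22 CPM with OPH, with overlap (-0.75 ± 0.29, adjusted p = 0.127, and 0.0455 with the block). Of the osteoclast markers only Itgb3, which fibroblasts also express, was called lower (-1.40 ± 0.16), and of 6 tested 3 were with the block and 2 without a low-count filter and without FMK replicate 3. Genes of neutrophils, lymphocytes and red cells were too low to test.

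**Figure D2:**
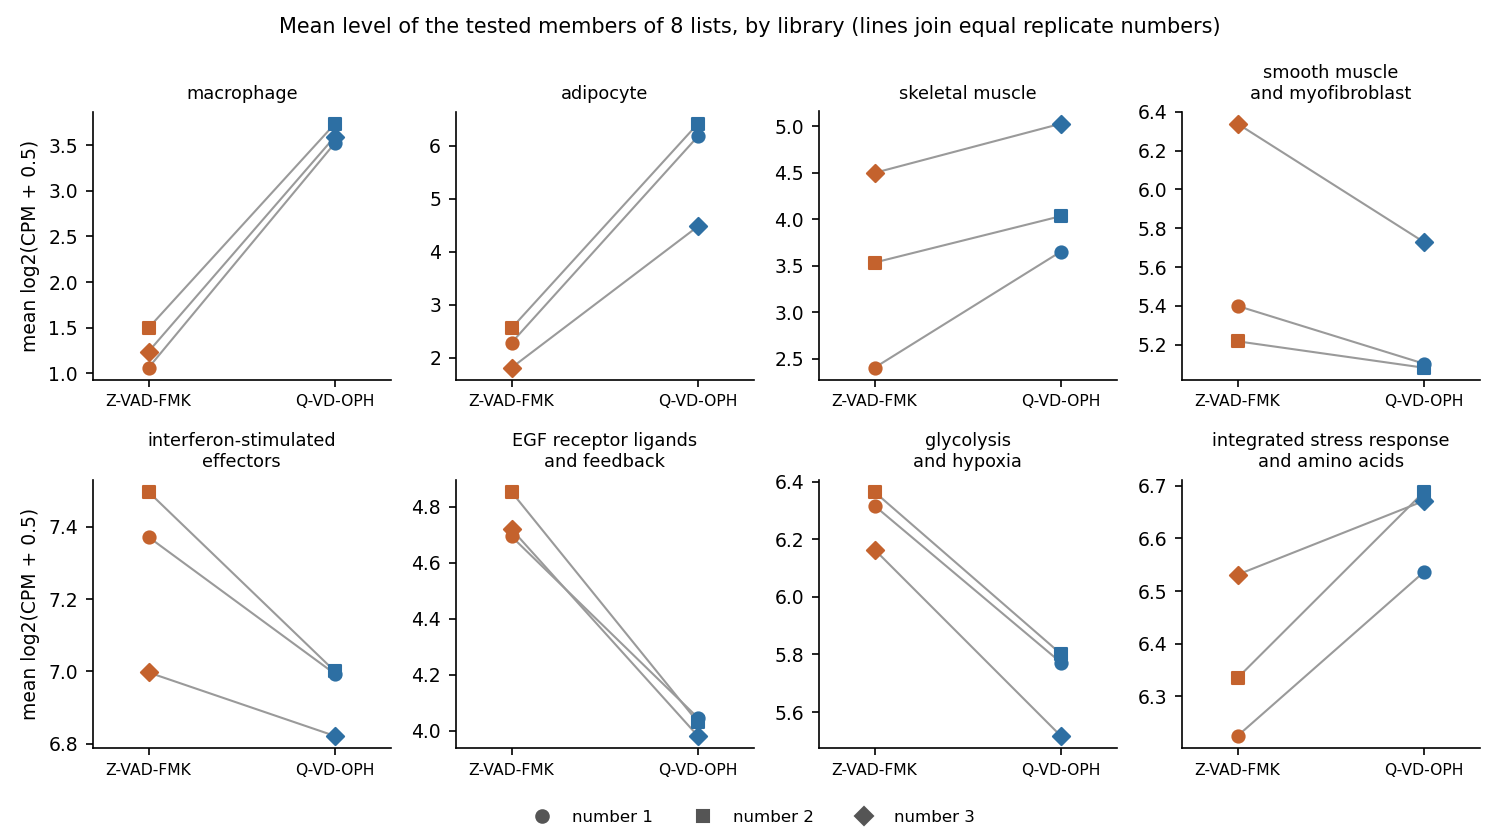
Mean of log2(CPM + 0.5) over the tested members of 8 gene lists (vertical axes, each with its own range) in each library with Z-VAD-FMK (orange) and Q-VD-OPH (blue), with lines joining equal replicate numbers. For the adipocyte list OPH replicate 3 stands below the other two, and for the skeletal muscle list the libraries keep their order in both groups while all 3 lines go up.

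The gene of smallest p, Errfi1, was lower with Q-VD-OPH and belongs to the epidermal growth factor (EGF) receptor and mitogen kinase pathway, in which ligands activate the receptor and induced feedback genes then shut it down. Of 21 ligand and feedback genes tested, 10 were called lower and 0 higher (median -0.62), beside 5.05% called lower over all genes, and 4 of the 21 were above 0. Among the ligands, Ereg, the epiregulin gene, was at 11.5, 14.7 and 11.3 CPM with FMK and 1.97, 2.25 and 1.41 CPM with OPH (-2.72 ± 0.33, adjusted p = 9.35e-05). All OPH libraries were below 3 CPM and all FMK libraries above 11. Hbegf, another ligand gene, had a log2 fold change of -0.93 ± 0.18. The ligand gene Tgfa, below the low-count filter, went the other way. It had 6, 1 and 4 counts with Z-VAD-FMK and 10, 11 and 17 with Q-VD-OPH. Errfi1 (ENSMUSG00000028967, chromosome 4, 150853919 to 150868892, plus strand), whose protein binds and inhibits the receptor, was at 99.3, 106 and 86.7 CPM with FMK and 23.7, 24.9 and 29.1 CPM with OPH, which was 3.77-fold lower with Q-VD-OPH (-1.91 ± 0.13, adjusted p = 9.3e-07). Ier3, an early response gene, was at 147, 169 and 152 CPM with FMK and 65.4, 56.1 and 54.6 CPM with OPH (-1.41 ± 0.10, adjusted p = 1.43e-06). The spread within each group was small against the gap for both. The phosphatase genes Dusp1, Dusp5 and Dusp6, which switch off mitogen kinases, had log2 fold changes of -1.23, -1.42 and -0.82, and Etv4, a transcription factor gene that kinase signalling induces, had -1.44. The count of 10 was 9 to 11 with 1 library left out.

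Immediate early genes respond to such signals within minutes, and many encode transcription factors. Of 24, 10 were called lower and 0 higher and 14 were not called (median -0.44), beside 5.05% called lower over all genes, and 5 of the 24 were above 0. Fos and Fosb, subunits of the factor AP-1, had log2 fold changes of -1.70 and -2.03. Their partner gene Junb was at 139, 162 and 165 CPM with FMK and 81.5, 77.1 and 90.2 CPM with OPH, without overlap (-0.91 ± 0.10, adjusted p = 5.28e-05). For Junb another fit gave adjusted p = 0.0942 with all 9 libraries in the fit. Zfp36, which encodes an RNA-destabilizing protein, was at 57.7, 71.3 and 59.0 CPM with FMK and 28.5, 32.1 and 32.2 CPM with OPH (-1.02 ± 0.13, adjusted p = 0.000186). Other genes of small p were lower. Ly6a, a surface protein gene of progenitor cells, was at 1147, 1178 and 892 CPM with FMK and 351, 386 and 341 CPM with OPH (-1.58 ± 0.10, adjusted p = 1.43e-06). Lbh, a transcription cofactor gene, was at 133, 158 and 135 CPM with FMK and 45.5, 59.9 and 49.4 CPM with OPH (-1.46 ± 0.12). Sdc4, the syndecan-4 gene, was at 166, 169.7 and 165 CPM with FMK and 73.6, 73.0 and 85.4 CPM with OPH (-1.11 ± 0.09). None of these overlapped between the groups. Ly6a has close copies in the Ly6 family, among which reads could be split.

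Mmp3, a matrix-degrading protease gene, had the largest fold of all genes called lower with Q-VD-OPH. Its protein, stromelysin-1, cuts proteoglycans and activates collagenases. Of 23 metalloproteinase and inhibitor genes, 6 were called lower and 1 higher (median -0.29), beside 5.05% lower and 4.07% higher over all genes. The median was -0.17 without FMK replicate 1 and -0.11 without OPH replicate 2. The gene called higher, Adamts17 (0.87 ± 0.21), left a count of 0 without FMK replicate 1 or 2 or OPH replicate 2. Mmp3 (ENSMUSG00000043613, chromosome 9, 7445822 to 7455975, plus strand) was at 58.0, 42.3 and 26.5 CPM with FMK and 1.83, 1.13 and 2.19 CPM with OPH, so that the lowest FMK library was over 10 times the highest OPH library (-4.62 ± 0.35, adjusted p = 2.68e-05). Mmp13, the collagenase gene of cartilage (ENSMUSG00000050578, chromosome 9, 7272514 to 7283331, plus strand), was at 30.8, 17.8 and 8.40 CPM with FMK and 5.22, 1.97 and 2.03 CPM with OPH. The FMK libraries spread widely for it, and FMK replicate 3 was close to OPH replicate 1 (-2.62 ± 0.59, adjusted p = 0.0412). For Mmp13 other fits gave adjusted p = 0.102 to 0.163 without FMK replicate 2 or OPH replicate 2 or 3 and 0.132 with limma-voom. Adamts4, an aggrecanase gene, was at 27.1, 25.9 and 26.1 CPM with FMK and 11.1, 15.1 and 14.5 CPM with OPH (-0.96 ± 0.18, adjusted p = 0.00337). The other main aggrecanase gene, Adamts5, was at 159.9, 156 and 135 CPM with FMK and 147, 156 and 154 CPM with OPH, with an interval inside 2-fold (-0.17 to 0.21 on the log2 scale, adjusted p = 0.936). Timp1, a secreted inhibitor of these proteases (ENSMUSG00000001131, chromosome X, 20870166 to 20874735, plus strand), was itself lower, at 508, 371 and 449 CPM with FMK and 140.2, 101 and 121 CPM with OPH (-1.88 ± 0.14, adjusted p = 5.21e-05). Plat, the tissue plasminogen activator gene, was at 62.2, 56.9 and 46.7 CPM with FMK and 29.0, 19.8 and 26.6 CPM with OPH (-1.14 ± 0.16). It was the 1 call among 13 genes of the plasminogen system and its serpins. That count was 2 without a low-count filter and without FMK replicate 3 and 3 with the replicate block, with DESeq2 and in the libraries numbered 1 and 2.

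Promoters of the genes at least 2-fold lower with Q-VD-OPH were searched for the letters that AP-1 binds, as a description with no test. The letters were TGACTCA on either strand, the site of Fos and Jun proteins, in RefSeq windows of GRCm38.p6 from 250 bases before to 50 after each start. They stood in 17 of 126 windows (13.5%) of 97 genes that were at least 2-fold lower. The share was 4 of 176 (2.27%) for 132 genes at least 2-fold higher. They stood in 447 of 12334 (3.62%) of all 9613 tested genes with a window and in 1709 of 32851 (5.20%) of all windows. The 16 genes with the letters included Mmp3, Mmp13 and Car9, a carbonic anhydrase gene described below, whose 100 bases before the gene start are shown because each has 1 match close to it. The capitals mark the AP-1 letters, on either strand, and all 3 stretches are written 5′ to 3′ on the plus strand (chr9:7445722-7445821, chr9:7272414-7272513 and chr4:43506866-43506965).
Mmp3: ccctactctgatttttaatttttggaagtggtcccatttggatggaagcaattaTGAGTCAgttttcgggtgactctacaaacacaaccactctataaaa
Mmp13: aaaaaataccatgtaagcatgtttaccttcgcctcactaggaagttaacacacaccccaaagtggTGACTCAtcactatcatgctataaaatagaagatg
Car9: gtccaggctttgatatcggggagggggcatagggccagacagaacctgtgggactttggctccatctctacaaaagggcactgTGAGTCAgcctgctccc
The first base of the match lies 46, 35 and 17 bases before the gene start in GENCODE M21. For GAAA, any 2 bases and GAAA again, the core of the element that interferon factors bind, the share was 3.97% of windows of genes at least 2-fold lower and 3.10% of those of tested genes. For GGG, any 2 bases, TT, any base and CC, an NF-kB-like site, it was 5.56% and 5.44%. The interferon-stimulated effector list held the interferon element in 17 of 39 windows (43.6%). It held the AP-1 letters in 5 of 39 (12.8%), close to the share of the genes at least 2-fold lower. These are matches of letters and not bound sites.

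**Figure D3:**
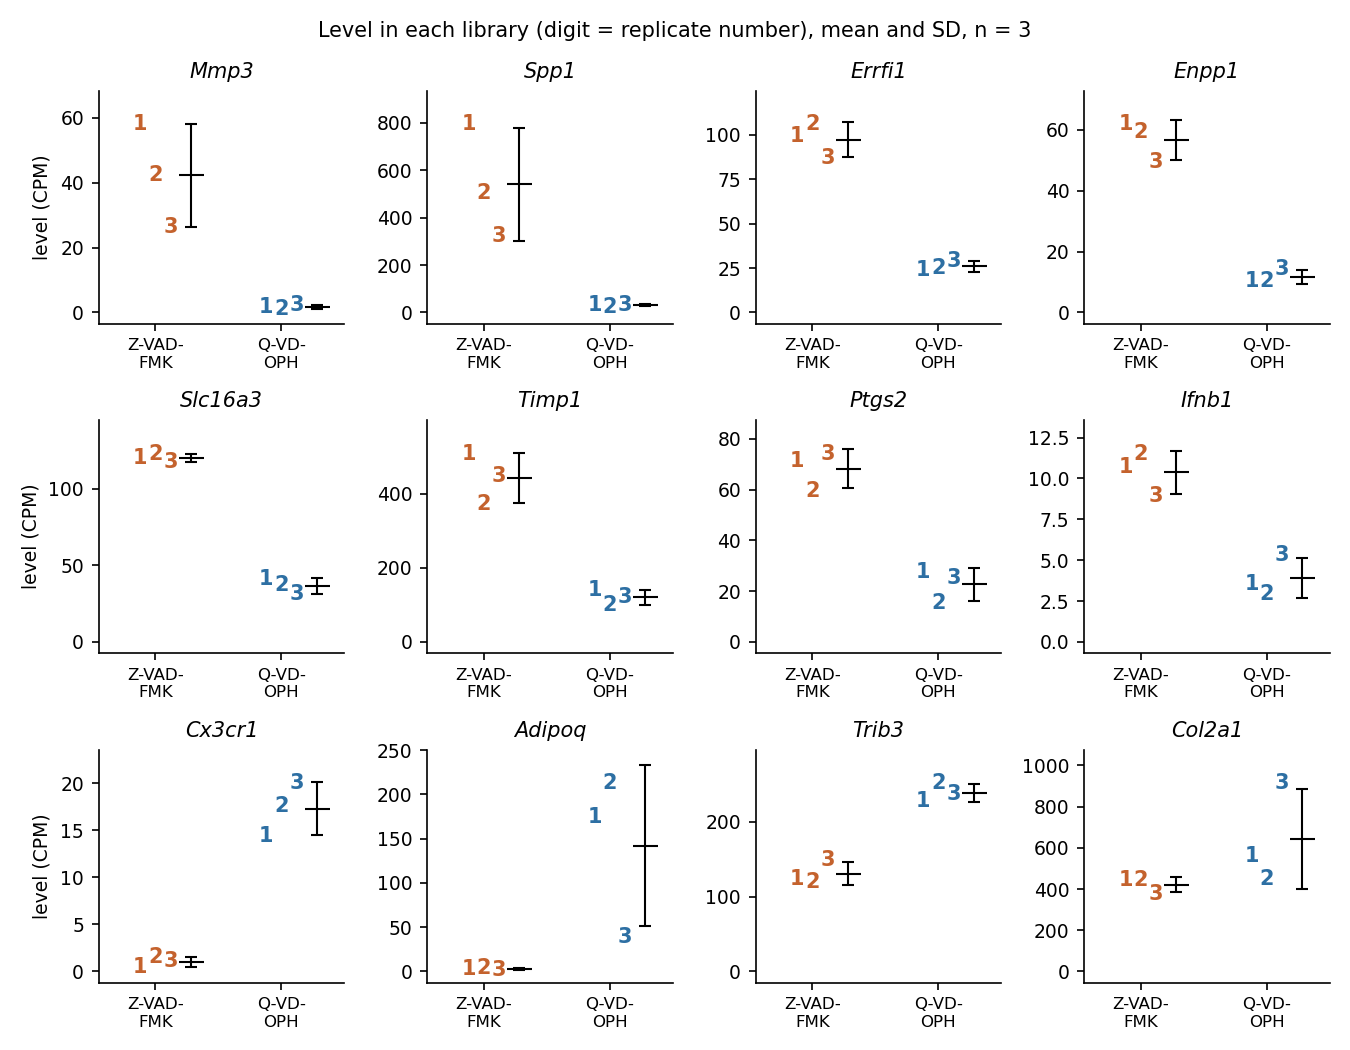
Level in CPM (vertical axes from 0) of 12 genes in each library, drawn as its replicate number, with the mean and SD of the 3 libraries of each inhibitor. Mmp3, Spp1, Errfi1, Enpp1, Slc16a3, Timp1, Ptgs2 and Ifnb1 are lower and Cx3cr1, Adipoq and Trib3 higher with Q-VD-OPH without overlap, while Col2a1 was not called.

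Among genes of inflammatory mediators more were called lower than higher with Q-VD-OPH. Over all genes 5.05% were called lower and 4.07% higher. Of 24 chemokine genes 6 were called lower and 3 higher. Those lower included genes of neutrophil attractants. Cxcl1 was at 24.3, 39.1 and 20.3 CPM with FMK and 7.47, 9.15 and 5.78 CPM with OPH (-1.90 ± 0.26, adjusted p = 0.000582), and Cxcl2 and Cxcl5 had log2 fold changes of -1.60 and -2.21. The monocyte attractant gene Ccl7 was at 235, 244 and 157 CPM with FMK and 83.2, 86.8 and 64.6 CPM with OPH (-1.44 ± 0.19, adjusted p = 0.00405). Those higher were Ccl3 (4.26), Cxcl16 (0.86) and Ccl12. Ccl12 was at 1.78, 0.460 and 1.28 CPM with FMK and 7.05, 10.1 and 9.38 CPM with OPH (2.91 ± 0.45, adjusted p = 0.000918). They stand beside macrophage markers with a median of 2.99, whose part in them was not tested. The count called lower was 2 without FMK replicate 1 or OPH replicate 2, 3 with limma-voom, with library size alone and without OPH replicate 3, 10 in the libraries numbered 1 and 2 and without FMK replicate 3 and 11 with the replicate block. That called higher was 1 without OPH replicate 2. Of 15 cytokine genes, 3 were called lower, and the count was 1 with all 9 libraries in the fit and 5 with the replicate block. Tslp, an epithelial and stromal cytokine gene, was at 13.8, 20.5 and 9.13 CPM with FMK and 4.09, 2.11 and 2.81 CPM with OPH (-2.27 ± 0.35, adjusted p = 0.000989). Il1rn, the interleukin-1 receptor antagonist gene, was at 94.1, 67.8 and 93.7 CPM with FMK and 48.2, 30.95 and 36.1 CPM with OPH (-1.15 ± 0.18, adjusted p = 0.00255). For Il1rn other fits gave adjusted p = 0.106 with all 9 libraries in the fit. Il6 was low in both groups, at 1.46, 3.68 and 3.65 CPM with FMK and 1.13, 0 and 3.60 CPM with OPH (95% interval -2.92 to 1.08 on the log2 scale, adjusted p = 0.617). Il1a, Csf2, Csf3 and Osm had 0 counts in all 6 libraries.

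Of 14 prostaglandin synthesis genes 4 were called lower and 0 higher, with a median of -0.71 that was -0.40 without FMK replicate 1. Over all genes 5.05% were called lower and 4.07% higher. Ptgs2, the inducible cyclooxygenase gene (ENSMUSG00000032487, chromosome 1, 150100031 to 150108227, plus strand), was at 71.1, 59.6 and 74.1 CPM with FMK and 27.5, 15.5 and 25.2 CPM with OPH (-1.59 ± 0.19, adjusted p = 0.000256). Every OPH library was far below every FMK library. Ptges, which makes prostaglandin E from its product, was at 33.1, 37.2 and 26.8 CPM with FMK and 19.9, 20.8 and 15.3 CPM with OPH (-0.79 ± 0.18, adjusted p = 0.0107). For Ptges other fits gave adjusted p = 0.062 without FMK replicate 2. The count was 2 without OPH replicate 2. Of 17 NF-kB subunit and feedback genes, 4 were called lower and 0 higher. Nfkbiz, a nuclear regulator gene, was at 34.5, 32.8 and 22.3 CPM with FMK and 12.7, 8.44 and 9.69 CPM with OPH (-1.54 ± 0.22, adjusted p = 0.000399). Nfkbia, the gene of the cytoplasmic inhibitor, was at 503, 630.3 and 481 CPM with FMK and 354, 410.1 and 381 CPM with OPH (-0.50 ± 0.10, adjusted p = 0.00775). The cofactor gene Bcl3 (-1.25 ± 0.18) and the adhesion gene Vcam1 (-0.52 ± 0.13) were the others. Among acute-phase and innate proteins 6 of 15 were called lower and 1 higher, which was Cd14, also a macrophage marker (2.28 ± 0.35). The pentraxin gene Ptx3 was at 96.6, 118 and 104 CPM with FMK and 62.7, 77.3 and 76.3 CPM with OPH (-0.56 ± 0.11, adjusted p = 0.00612), without overlap. The serum amyloid gene Saa3 was at 21.7, 27.1 and 21.5 CPM with FMK and 13.5, 13.7 and 14.7 CPM with OPH (-0.75 ± 0.18, adjusted p = 0.0162). For Saa3 other fits gave adjusted p = 0.059 to 0.0841 without FMK replicate 2 or OPH replicate 1 or 2 and 0.0621 with all 9 libraries in the fit. The count called lower was 1 without FMK replicate 2, 2 without OPH replicate 2 and 3 without FMK replicate 1 or OPH replicate 3. That called higher was 2 with DESeq2, without a low-count filter, without OPH replicate 3 and in the libraries numbered 1 and 2, and 3 with the replicate block. Slpi, a secreted protease inhibitor gene, was at 46.8, 26.2 and 17.5 CPM with FMK and 1.55, 0.281 and 2.35 CPM with OPH (-4.45 ± 0.63, adjusted p = 0.0103). For Slpi other fits gave adjusted p = 0.0637 without OPH replicate 1 and 0.0703 with limma-voom.

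Genes of the interferon response were lower with Q-VD-OPH where they were called, with 1 exception. Interferon beta is released by cells that sense foreign or misplaced nucleic acid, and its receptor acts through STAT and IRF factors on a broad set of antiviral effector genes. Ifnb1, its gene (ENSMUSG00000048806, chromosome 4, 88522025 to 88522774, minus strand), was at 10.7, 11.5 and 8.95 CPM with FMK and 3.52, 2.96 and 5.32 CPM with OPH, so that the highest OPH library was below the lowest FMK library (-1.41 ± 0.31, adjusted p = 0.011). For Ifnb1 other fits gave adjusted p = 0.0578 to 0.0594 without FMK replicate 2 or OPH replicate 2. Ifna1, Ifne, Ifng, Ifnl2 and Ifnl3 had 0 counts. Of the sensors and adaptors 3 of 15 were called lower, beside 5.05% called lower over all genes. Tmem173, the gene of the DNA-signalling adaptor STING, was at 86.2, 85.2 and 72.5 CPM with FMK and 31.01, 30.7 and 36.0 CPM with OPH (-1.32 ± 0.12, adjusted p = 1.14e-05). The count was 1 with all 9 libraries in the fit and without OPH replicate 1, 5 without FMK replicate 3 and 7 with the replicate block. Socs3, a feedback inhibitor gene of cytokine receptors, was at 120.2, 117 and 98.2 CPM with FMK and 43.6, 37.7 and 39.1 CPM with OPH (-1.48 ± 0.11, adjusted p = 2.09e-06). It was the 1 call among 19 genes of IRF and STAT signalling, near the 5.05% over all genes. That count was 2 with DESeq2 and without OPH replicate 1, 3 in the libraries numbered 1 and 2 and 5 with the replicate block, without a low-count filter and without FMK replicate 3. Irf7 was at 599, 747 and 506 CPM with FMK and 469, 529 and 447 CPM with OPH (-0.36 ± 0.13, adjusted p = 0.14). For Irf7 other fits gave adjusted p = 0.00851 without FMK replicate 3, 0.000343 with the replicate block, 0.000637 without a low-count filter and 0.0233 in the libraries numbered 1 and 2.

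Of 45 interferon-stimulated effector genes, 11 were called lower and 1 higher (median -0.29, and -0.18 without FMK replicate 2 or with library size alone), with 43 below 0, and 34 had an interval inside 2-fold. The count called lower was 19 in the libraries numbered 1 and 2 and 24 with the replicate block and without FMK replicate 3. Over all genes tested 5.05% were called lower and 4.07% higher. Isg15, a ubiquitin-like antiviral gene, was at 2664, 2951 and 2717 CPM with FMK and 2114, 2226 and 2053 CPM with OPH, a small but separate difference (-0.38 ± 0.07, adjusted p = 0.00298, and 0.377 with all 9 libraries in the fit). Slfn2, a schlafen family gene, was at 119, 115 and 103 CPM with FMK and 48.2, 39.1 and 56.0 CPM with OPH (-1.24 ± 0.13, adjusted p = 2.77e-05). Ifi27l2a was at 352, 321 and 293 CPM with FMK and 203, 189.5 and 161 CPM with OPH (-0.80 ± 0.10, adjusted p = 0.000157). The membrane protein gene Ifitm1 was at 9.56, 10.1 and 4.75 CPM with FMK and 2.26, 0.563 and 1.56 CPM with OPH (-2.47 ± 0.49, adjusted p = 0.00506). Its neighbours Ifitm2 and Ifitm3 had log2 fold changes of -0.57 and -0.43. The 1 gene higher was Ifi27 (0.95 ± 0.12, adjusted p = 0.000308), and the count called higher was 0 with all 9 libraries in the fit. Cxcl10, a chemokine gene that interferon induces, was at 735, 1015 and 489 CPM with FMK and 579, 542 and 470.1 CPM with OPH, with overlap (95% interval -1.29 to 0.30 on the log2 scale, adjusted p = 0.434). FMK replicate 3 was low for it, and it was called lower without that library (adjusted p = 0.0249 without FMK replicate 3 and 0.025 in the libraries numbered 1 and 2). Among interferon-inducible GTPases 2 of 13 were called lower, Irgm1 (-0.47 ± 0.08) and Ifi47 (-0.53 ± 0.09). That count was 4 with the replicate block, without a low-count filter and without FMK replicate 3. Of 21 genes of MHC class I presentation 1 was called lower, near the 5.05% over all genes, which was H2-T22 (-0.48 ± 0.12). That count was 0 with library size alone and without FMK replicate 1 or 2 or OPH replicate 1 or 3, 3 without a low-count filter and without FMK replicate 3 and 10 with the replicate block. The H2, Oas, Ifi and Ifitm families hold near-identical copies, and values of single members are uncertain.

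Caspases are the proteins both compounds bind. Of 8 tested caspase genes 2 were called lower and 0 higher, with 7 below 0 and all but 1 with an interval inside 2-fold, beside 5.05% called lower over all genes. Casp9, the initiator of the mitochondrial route, was at 12.5, 19.2 and 15.0 CPM with FMK and 17.9, 15.1 and 14.7 CPM with OPH, with overlap and an interval inside 2-fold (95% interval -0.41 to 0.48 on the log2 scale, adjusted p = 0.956). Casp8, the initiator of the death receptor route, was at 46.3, 48.6 and 52.2 CPM with FMK and 33.1, 41.5 and 32.7 CPM with OPH, lower without overlap (-0.45 ± 0.13, adjusted p = 0.0465). For Casp8 other fits gave adjusted p = 0.085 to 0.159 without FMK replicate 1, 2 or 3 or OPH replicate 1 or 3, 0.0644 with DESeq2, 0.12 with library size alone and 0.206 in the libraries numbered 1 and 2. Casp12 was lower as well (-0.64, adjusted p = 0.0281). For Casp12 other fits gave adjusted p = 0.0644 to 0.122 without FMK replicate 1 or 2 or OPH replicate 1, 2 or 3. The inflammatory caspase gene Casp4 was at 24.1, 23.9 and 16.4 CPM with FMK and 16.9, 16.2 and 10.47 CPM with OPH (-0.57 ± 0.22, adjusted p = 0.134). For Casp4 other fits gave adjusted p = 0.0497 without FMK replicate 3 and 0.0272 with the replicate block. Casp1, which matures interleukin-1 beta and is abundant in macrophages, was below the filter with 0, 1 and 1 counts with Z-VAD-FMK and 8, 14 and 18 with Q-VD-OPH. The count of caspase genes called lower was 0 without FMK replicate 1 or 2 or OPH replicate 1 or 3 and 1 with DESeq2, with library size alone, in the libraries numbered 1 and 2 and without OPH replicate 2.

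Of 25 genes of the BCL2 family and its partners 3 were called higher and 0 lower, beside 4.07% higher and 5.05% lower over all genes. The count called lower was 1 with the replicate block. Both leading genes called higher encode activators of apoptosis of the BH3-only class. Bbc3, the PUMA gene, was at 61.9, 65.5 and 65.0 CPM with FMK and 117, 117 and 98.3 CPM with OPH (0.79 ± 0.10, adjusted p = 0.000227). Bcl2l11, the BIM gene, was at 36.6, 42.9 and 48.6 CPM with FMK and 59.9, 73.5 and 70.5 CPM with OPH (0.67 ± 0.13, adjusted p = 0.00488). Cycs, the cytochrome c gene, was higher by 0.67 (adjusted p = 0.0125). For Cycs other fits gave adjusted p = 0.0565 to 0.0748 without OPH replicate 1 or 2. In the necroptosis and pyroptosis list 3 of 9 were called lower and 0 higher. Ripk3, the necroptosis kinase gene (ENSMUSG00000022221, chromosome 14, 55784995 to 55788865, minus strand), was at 35.3, 33.6 and 36.0 CPM with FMK and 20.0, 15.9 and 17.7 CPM with OPH, without overlap (-0.97 ± 0.15, adjusted p = 0.00115). Mlkl, whose protein breaks the cell membrane, was at 36.5, 42.0 and 27.6 CPM with FMK and 20.999, 26.9 and 15.9 CPM with OPH (-0.73 ± 0.20, adjusted p = 0.0375). For Mlkl other fits gave adjusted p = 0.11 to 0.155 without FMK replicate 1 or 2 or OPH replicate 1 or 3 and 0.0639 with library size alone. Zbp1, a nucleic acid sensor gene that can activate RIPK3, was at 107, 155 and 103 CPM with FMK and 65.0, 73.3 and 51.0 CPM with OPH (-0.95 ± 0.18, adjusted p = 0.0162). Without OPH replicate 1 the list's count was 1. For Zbp1 other fits gave adjusted p = 0.0696 without OPH replicate 1 and 0.0686 with all 9 libraries in the fit. Among genes of dead-cell clearance the receptor gene Axl (-0.68 ± 0.10) and the bridging protein genes Pros1 (-0.69 ± 0.12) and Mfge8 (-0.53 ± 0.08) were lower. The 1 gene higher was Cd36, also an adipocyte gene (5.34 ± 0.92, adjusted p = 0.0404). It stands beside adipocyte markers with a median of 4.05, whose part in it was not tested. For Cd36 other fits gave adjusted p = 0.086 to 0.158 without FMK replicate 1, 2 or 3 or OPH replicate 1 or 2, 0.365 with limma-voom and 0.0629 without a low-count filter. The list had 3 of 14 called lower and a median of -0.09, which is above 0 with library size alone and without FMK replicate 2. Counts called lower were 5 with the replicate block.

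Genes of cartilage matrix went in both directions. Of 22 cartilage matrix genes 3 were called higher and 2 lower, with a median of 0.36 that was 0.021 in the libraries numbered 1 and 2 and 0.035 without OPH replicate 3. Over all genes 4.07% were called higher and 5.05% lower. Col2a1, the main collagen gene of cartilage (ENSMUSG00000022483, chromosome 15, 97975602 to 98004695, minus strand), was at 444, 443 and 378 CPM with FMK and 562, 450.2 and 913 CPM with OPH. OPH replicate 3 was far above the rest (0.61 ± 0.30, 95% interval -0.19 to 1.40, adjusted p = 0.339). Acan, the aggrecan gene, was at 31.8, 17.8 and 19.5 CPM with FMK and 32.3, 27.2 and 47.7 CPM with OPH, with overlap (0.63 ± 0.27, adjusted p = 0.205). For Acan other fits gave adjusted p = 0.04 without FMK replicate 1, 0.0231 with the replicate block and 0.00332 without a low-count filter. Sox9, whose protein is the leading factor of cartilage fate, was at 315, 268 and 320.0 CPM with FMK and 302, 265 and 362 CPM with OPH, with an interval inside 2-fold (-0.20 to 0.28, adjusted p = 0.88). Sox6, its partner in that program, was at 12.2, 11.7 and 12.4 CPM with FMK and 23.7, 25.3 and 29.9 CPM with OPH, without overlap (1.12 ± 0.18, adjusted p = 0.00113). Of 17 chondrogenic regulator genes tested 2 were called higher, Sox6 and Fgfr3, and 0 lower. The median was 0.04, with 9 above and 8 below 0. The count called higher was 1 to 3 with 1 library left out. Xylt1, which starts the sugar chains of proteoglycans, was at 20.1, 25.0 and 15.7 CPM with FMK and 34.95, 41.7 and 36.4 CPM with OPH (0.89 ± 0.17, adjusted p = 0.00463). Of 20 genes of sulfate and glycosaminoglycan synthesis 1 was called higher, Xylt1, and 1 lower, Ugdh (-0.50), near the shares over all genes. The count called lower was 0 with library size alone and without FMK replicate 1 or 2 or OPH replicate 2. The matrix genes called higher were Cilp2 (0.45 ± 0.09), Prelp (0.65 ± 0.16) and Chad (1.00), and those called lower Epyc (-2.11 ± 0.43) and Ucma (-1.03). For Cilp2 other fits gave adjusted p = 0.0503 without OPH replicate 2. For Prelp they gave adjusted p = 0.092 to 0.101 without FMK replicate 2 or OPH replicate 1. For Epyc they gave adjusted p = 0.115 to 0.131 without OPH replicate 2 or 3, 0.0717 with limma-voom and 0.0553 in the libraries numbered 1 and 2. The count called higher was 1 without OPH replicate 1, 6 without a low-count filter and 7 with the replicate block. That called lower was 0 without OPH replicate 2 and 1 with all 9 libraries in the fit, with limma-voom, with library size alone and without FMK replicate 1, 2 or 3 or OPH replicate 1.

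Of 12 mineralization and osteoblast genes 6 were called lower and 0 higher, beside 5.05% lower over all genes, and 6 were not called, with 3 of the 12 above 0. The count was 5 or 6 with 1 library left out. The 6 were Enpp1, Ank, Mgp and Spp1, given here, and the general matrix genes Sparc and Col1a1 (-0.40 and -0.35). Enpp1, which makes pyrophosphate, a brake on mineral (ENSMUSG00000037370, chromosome 10, 24637914 to 24712159, minus strand), was at 61.7, 59.2 and 49.3 CPM with FMK and 10.3, 10.4 and 14.2 CPM with OPH, so that the OPH libraries were 4.89-fold lower on average (-2.29 ± 0.17, adjusted p = 1.43e-06). Ank, a membrane protein gene needed to export pyrophosphate, was at 76.0, 74.5 and 71.6 CPM with FMK and 36.2, 30.7 and 40.3 CPM with OPH (-1.05 ± 0.12, adjusted p = 8.14e-05). Mgp, matrix Gla protein, which holds back calcification of cartilage (ENSMUSG00000030218, chromosome 6, 136872435 to 136875823, minus strand), was at 4217, 3749 and 3409 CPM with FMK and 1747, 1717 and 1877 CPM with OPH (-1.09 ± 0.08, adjusted p = 1.43e-06). These 3 genes encode or supply inhibitors of mineral, and none overlapped between the groups. Spp1, the osteopontin gene (ENSMUSG00000029304, chromosome 5, 104435118 to 104441050, plus strand), was at 793, 505 and 321 CPM with FMK and 33.4, 24.8 and 32.5 CPM with OPH. Its FMK libraries ranged over more than a factor of 2, and the lowest of them was still far above the highest OPH library (-4.16 ± 0.44, adjusted p = 0.0126). For Spp1 other fits gave adjusted p = 0.0509 to 0.071 without FMK replicate 2 or OPH replicate 1, 2 or 3. Col10a1, the collagen gene of hypertrophic cartilage, was at 4.70, 6.44 and 7.12 CPM with FMK and 12.4, 5.07 and 10.3 CPM with OPH (-0.12 to 1.33, adjusted p = 0.316). Runx2, a factor gene of bone and hypertrophic cartilage, was at 22.4, 20.7 and 25.7 CPM with FMK and 14.2, 14.9 and 28.3 CPM with OPH (-0.80 to 0.27, adjusted p = 0.593). Both overlapped between the groups, and the brackets hold the 95% interval.

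Of joint and tendon genes, those with large differences were spread widely between the FMK libraries. Prg4, the lubricin gene of articular surfaces (ENSMUSG00000006014, chromosome 1, 150449412 to 150466165, minus strand), was at 129.8, 103 and 45.6 CPM with FMK and 11.8, 8.58 and 13.1 CPM with OPH, lower without overlap (-3.06 ± 0.49, adjusted p = 0.0307). It was the 1 call of 10 joint genes. That count was 0 without FMK replicate 2 or OPH replicate 2 or 3 and 2 with the replicate block and with DESeq2. For Prg4 other fits gave adjusted p = 0.0882 to 0.13 without FMK replicate 2 or OPH replicate 1, 2 or 3, 0.0758 with the replicate block, 0.103 with limma-voom and 0.0558 without a low-count filter. Thbs4, a thrombospondin gene of tendon, was at 279.8, 317 and 141 CPM with FMK and 40.0, 44.2 and 30.95 CPM with OPH (-2.68 ± 0.38, adjusted p = 0.0247). For Thbs4 other fits gave adjusted p = 0.0833 to 0.0999 without FMK replicate 1 or OPH replicate 1, 2 or 3. The tendon list had 3 of 10 called lower and 1 higher, beside 5.05% lower and 4.07% higher over all genes. Col14a1, a collagen gene of tendon and fascia, was at 183, 179 and 140.4 CPM with FMK and 212, 262 and 247 CPM with OPH (0.52 ± 0.11, adjusted p = 0.0105). For Col14a1 other fits gave adjusted p = 0.0642 without OPH replicate 2. The count called higher was 0 without OPH replicate 2, 2 with limma-voom, with a stricter low-count filter and without OPH replicate 1, 3 with DESeq2, with library size alone, without a low-count filter, without FMK replicate 3 and in the libraries numbered 1 and 2, and 4 with the replicate block. Counts called lower were 0 without OPH replicate 2, 1 with library size alone and without FMK replicate 2 or OPH replicate 1 and 5 with the replicate block, with DESeq2 and in the libraries numbered 1 and 2.

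Collagens and other matrix of fibroblasts were lower with Q-VD-OPH in about as many genes as were not called. Of 28 genes, 13 were called lower and 1 higher (median -0.39), beside 5.05% lower and 4.07% higher over all genes. The interval lay inside 2-fold for 19 of the 28. The fibrillar collagen genes Col1a1, Col1a2 and Col3a1 had log2 fold changes of -0.35, -0.38 and -0.64. Lox, the lysyl oxidase gene that crosslinks collagen, was at 1252, 1307 and 1376 CPM with FMK and 929.7, 869 and 874 CPM with OPH (-0.56 ± 0.07, adjusted p = 0.000197). Its relative Loxl1 was at 327, 326 and 352 CPM with FMK and 223, 217 and 217 CPM with OPH (-0.61 ± 0.08, adjusted p = 0.000188). The gene called higher was Eln, the elastin gene (ENSMUSG00000029675, chromosome 5, 134702593 to 134747323, minus strand), at 443, 496 and 546 CPM with FMK and 818, 962 and 983 CPM with OPH (0.90 ± 0.09, adjusted p = 3.32e-05). Mfap4, a microfibril protein gene of elastic fibres, was higher as well, at 223, 219.9 and 231 CPM with FMK and 331, 379 and 343 CPM with OPH (0.65 ± 0.08, adjusted p = 0.000181). The count called lower was 7 without FMK replicate 2, 8 without OPH replicate 1 and 22 with the replicate block, and that called higher was 2 with the block and without FMK replicate 3 or OPH replicate 1 or 3 and 3 in the libraries numbered 1 and 2.

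Genes of glycolysis and of the response to low oxygen were lower with Q-VD-OPH in most of those tested. Of 34 tested, 19 were called lower and 0 higher (median -0.55), beside 5.05% lower over all genes, and the count was 14 to 19 with 1 library left out. Slc16a3, the lactate exporter gene (ENSMUSG00000025161, chromosome 11, 120948480 to 120960868, plus strand), was at 119.6, 122.6 and 118 CPM with FMK and 41.2, 37.0 and 31.1 CPM with OPH, close together within each group (3.29-fold lower, -1.72 ± 0.11, adjusted p = 9.3e-07). Pkm, the pyruvate kinase gene, was at 846, 895 and 888 CPM with FMK and 519.8, 514 and 477 CPM with OPH (-0.80 ± 0.07, adjusted p = 1.11e-05). The enolase gene Eno1 was at 69.8, 61.8 and 57.9 CPM with FMK and 35.7, 31.8 and 33.9 CPM with OPH (-0.90 ± 0.12, adjusted p = 0.000342). The glucose transporter genes Slc2a1 and Slc2a3, the hexokinase gene Hk2 and Pgk1, phosphoglycerate kinase, had log2 fold changes of -0.62, -0.77, -0.63 and -0.86. Car9, a carbonic anhydrase gene induced by low oxygen (ENSMUSG00000028463, chromosome 4, 43506966 to 43513729, plus strand), was at 193, 179 and 117 CPM with FMK and 34.7, 23.8 and 19.2 CPM with OPH (-2.65 ± 0.30, adjusted p = 0.00712). For Car9 other fits gave adjusted p = 0.0511 without OPH replicate 2. Within numbers 1, 2 and 3 the list's mean log2 level differed by -0.54, -0.56 and -0.65.

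Some genes of stress programs were higher with Q-VD-OPH. The integrated stress response halts general translation and, through the factor ATF4, raises genes of amino acid supply and of cell death. Of 44 such genes 12 were called higher and 1 lower (median 0.26), beside 4.07% higher over all genes. Trib3, a pseudokinase gene and ATF4 target (ENSMUSG00000032715, chromosome 2, 152337422 to 152344032, minus strand), was at 124, 120.0 and 149 CPM with FMK and 228, 252 and 238 CPM with OPH (0.87 ± 0.10, adjusted p = 5.28e-05). Gdf15, a stress hormone gene, was at 27.2, 36.0 and 29.4 CPM with FMK and 77.7, 108 and 67.4 CPM with OPH (1.45 ± 0.18, adjusted p = 0.000502). Sesn2, a stress-induced gene of growth restraint, was at 46.7, 38.6 and 48.0 CPM with FMK and 73.4, 70.4 and 73.3 CPM with OPH (0.70 ± 0.12, adjusted p = 0.00157). Atf4 itself was higher by 0.40 ± 0.08. The count called higher was 6 without FMK replicate 1 or OPH replicate 2 or 3, 7 without FMK replicate 2 and 19 with library size alone. That called lower was 3 with the replicate block. It was 0 with library size alone, in the libraries numbered 1 and 2 and without FMK replicate 2 or OPH replicate 1, 2 or 3. Of 26 p53 targets 6 were called higher and 0 lower, 3 of them (Bbc3, Gdf15 and Sesn2) also on other lists here. Trp53inp1, an autophagy and death gene that p53 induces, was at 52.3, 61.0 and 53.9 CPM with FMK and 98.8, 129 and 114 CPM with OPH (1.03 ± 0.12, adjusted p = 5.52e-05). Mdm2, the ubiquitin ligase gene that restrains p53, was higher by 0.39 ± 0.09. Within the p53 list the count called higher was 4 to 7 with 1 library left out, beside the same 4.07% over all genes. That called lower was 1 with the replicate block, without a low-count filter and without FMK replicate 1.

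Antioxidant and chaperone genes went in both directions. Of 30 NRF2 and glutathione genes 7 were called higher and 3 lower, beside 4.07% higher and 5.05% lower over all genes. Hmox1, heme oxygenase, was at 67.7, 79.4 and 73.4 CPM with FMK and 139, 122.7 and 115 CPM with OPH (0.77 ± 0.10, adjusted p = 0.000324). The glutathione synthesis genes Gclc and Gclm were higher by 0.90 and 0.70. Gpx3, a secreted peroxidase gene, was at 42.1, 31.4 and 42.0 CPM with FMK and 70.8, 84.3 and 62.4 CPM with OPH (0.91 ± 0.15, adjusted p = 0.00117). Its intracellular relative Gpx1 was lower, at 335, 373 and 380.3 CPM with FMK and 247, 259 and 268 CPM with OPH (-0.49 ± 0.08, adjusted p = 0.00163). The count called higher was 4 without OPH replicate 1 and 11 with the replicate block, and that called lower was 5 with the block. Of 28 chaperones and folding enzymes of the endoplasmic reticulum 4 were called lower and 2 higher, and all 28 intervals lay inside 2-fold. Herpud1, a gene of protein disposal, was at 93.5, 95.5 and 99.7 CPM with FMK and 125, 136 and 144 CPM with OPH (0.49 ± 0.09, adjusted p = 0.00394). Plod2, a collagen hydroxylase gene, was at 381, 314 and 305 CPM with FMK and 234, 219 and 250.9 CPM with OPH (-0.51 ± 0.10, adjusted p = 0.004). The count called lower was 1 with library size alone, 2 without FMK replicate 1 or 2 or OPH replicate 2 or 3 and 10 with the replicate block, and that called higher was 1 in the libraries numbered 1 and 2 and with any library but OPH replicate 1 left out. Cyp1b1, an enzyme gene of xenobiotic metabolism, was at 49.4, 59.6 and 44.6 CPM with FMK and 53.1, 50.7 and 48.8 CPM with OPH, with an interval inside 2-fold (-0.28 to 0.26, adjusted p = 0.974). Of 20 cytochrome P450 and xenobiotic genes 2 were called higher, Abcc4 (1.23) and Fmo1 (1.71), and 2 lower, Cyp26b1 (-0.66) and Ugdh (-0.50). With 1 library left out these counts were 0 to 2 higher and 0 to 3 lower. Some genes of small p outside these lists were higher. Tenm4, a teneurin gene, was at 53.5, 50.9 and 44.9 CPM with FMK and 114, 163 and 129 CPM with OPH (1.45 ± 0.13, adjusted p = 1.37e-05). Tsc22d3, a glucocorticoid-induced gene, was at 55.3, 65.3 and 61.9 CPM with FMK and 95.8, 113 and 115 CPM with OPH (0.83 ± 0.11). The histone gene Hist1h2bc was at 89.6, 91.4 and 93.3 CPM with FMK and 148, 163 and 138 CPM with OPH (0.71 ± 0.09). It belongs to a family of close copies, among which reads could be split.

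**Figure D4:**
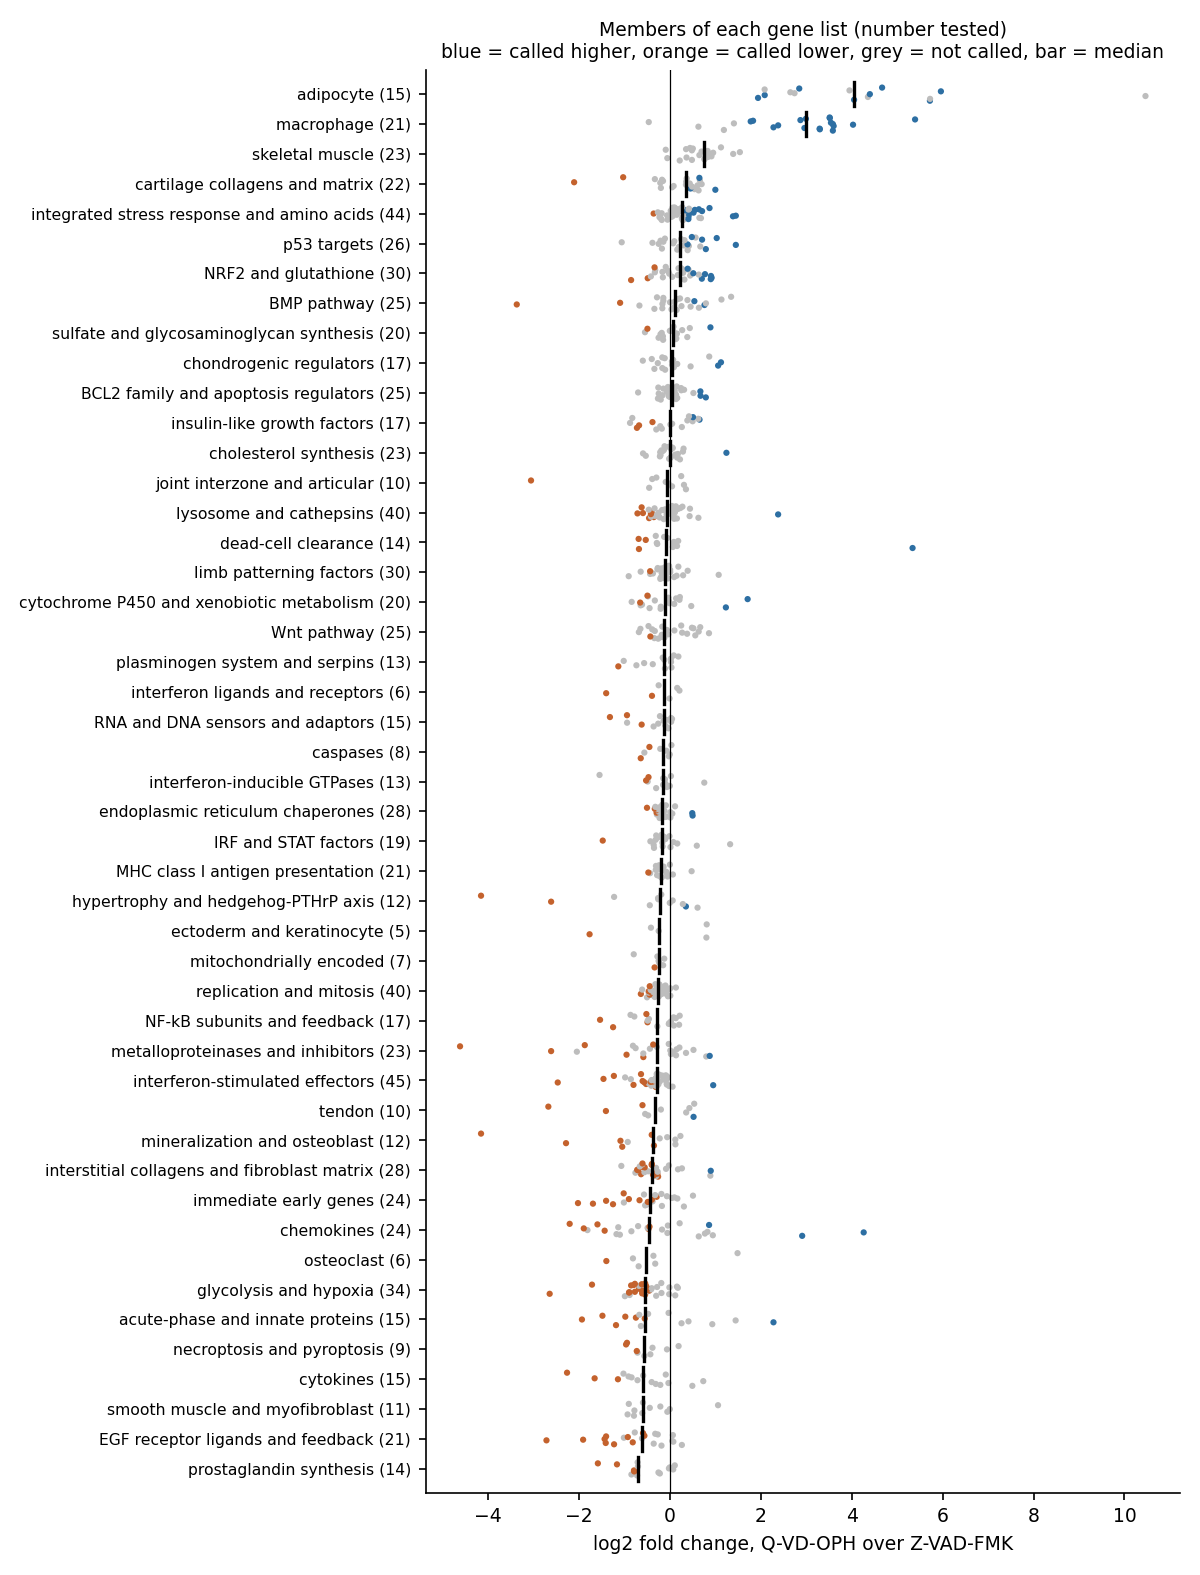
Log2 fold change of Q-VD-OPH over Z-VAD-FMK (horizontal axis) of each tested member of the gene lists with 5 or more tested members (rows, number tested in brackets, ordered by median), with called members in blue (higher) or orange (lower) and the median as a bar. Adipocyte and macrophage markers stand apart to the right, and the prostaglandin, EGF receptor and smooth muscle lists lie to the left, with medians of -0.71, -0.62 and -0.60. Cidec, with 0 counts in the FMK libraries, stands at its fitted value.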

How the data were processed

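RNA of 6 cultures was sequenced from its 3′ ends with the QuantSeq 3′ FWD kit, per the labels' protocols. The deposited table holds raw counts per gene and library, together with the authors' log2 fold changes, p-values and adjusted p-values for each pair of treatments, per the file headers. The submitters' processing notes name FastQC, MultiQC, cutadapt, STAR, DESeq2 and mm10 without versions. Counting program, annotation, strand setting and treatment of repeats: not given in the sources used here. Counts of overlapping or near-identical genes may therefore be shared. Some column names carry a letter a that the sources used here do not explain. A group of 99 spike-in rows with 1 count in all was left out, and 90 symbols stand on several identifiers. Coordinates are from GENCODE M21 (GRCm38, the assembly of mm10), in which 52403 of the 52550 identifiers (99.7%) were found.

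Counts were tested with edgeR 4.0.16 (quasi-likelihood, robust, TMM factors of 0.957 to 1.04, its default low-count filter) in R 4.3.3 over the 6 libraries with the inhibitor as the only term, and p-values were adjusted by Benjamini-Hochberg over 12743 genes. On simulated counts of 12523 genes 86 of 100 genes changed 2-fold and 98 of 100 changed 4-fold were called, with 19 false calls. Beside the 86 and 98, those 19 are a larger share of the calls than the threshold of 0.05. The 200 changed genes were drawn from those above a mean of 5 CPM, so recovery below that level was not simulated. An SE is the log2 fold change over the root of F, intervals are 95%, and intervals and floors on counts cover counting error only. An exact permutation test of 3 against 3 cannot go below p = 0.1. Libraries of equal number deviated from their group means together (r = 0.275, 0.107 and 0.239, other pairs -0.222 to -0.0209). Deviations sum to 0 within a group, so the values of the other pairs are not independent of these. The labels do not say that the numbers pair the samples, so the block is an alternative and the main test leaves it out. The 15 alternatives included DESeq2 1.42.0 and limma-voom (limma 3.58.1).

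The comparison, the 50 gene lists and the named genes were chosen with earlier results of these data known. Named by rule are, in each direction, the 12 called genes of largest change with a mean of at least 5 CPM in the higher group and no overlap, the 8 called genes of smallest p with a mean of at least 50 CPM, the 3 members of smallest p in each list, and a fixed set reported whether called or not. The text describes those that bear on the lists, and some are not reported here. Further called members named with a list were chosen after their values were seen. Summaries were computed in Python 3.11.15 with pandas 2.3.3, numpy 2.4.6 and scipy 1.17.1.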

Additional observations from a re-analysis of the deposited data

How the results depend on the processing

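The number of called genes, 1163, was 1156 with RLE normalization, 1175 with all 9 libraries in the fit, 1191 with DESeq2, 1060 with limma-voom, 1082 with a stricter filter (5 CPM in 3 libraries) and 1138 in the libraries numbered 1 and 2, and with the replicate block it was 2159 (953 higher and 1206 lower). Library size alone gave 1004 higher and 394 lower, and without a low-count filter 286 genes were at least 2-fold higher. With 1 library left out at a time the count was 504 to 1216, with 208 to 507 higher and 296 to 709 lower, and at least 2-fold 110 to 225 higher and 84 to 189 lower, with fewer samples and fewer degrees of freedom. Of the 133 named genes called, 1 (Prg4) lost its call with the block, 19 with all 9 libraries, 2 with DESeq2, 17 with limma-voom, 15 with library size alone and 15 to 38 with 1 library left out, and none changed direction in the alternatives run. Of the 49 not called, 27 were called with the block. Some genes with a log2 fold change near 0 changed sign, and the cause was not tested. Sox9 was at -0.038 in the libraries numbered 1 and 2 and ranged from -0.085 to 0.14 with 1 library left out. Adamts5 was at -0.060 in the libraries numbered 1 and 2 and ranged from -0.052 to 0.064. Casp9 ranged from -0.11 to 0.21. Cyp1b1 was at 0.10 with library size alone and ranged from -0.10 to 0.11. Depth limits genes of few counts, where 5.25% were called below a mean of 5 CPM over both groups. Cx3cr1, Csf1r, Tyrobp, Adipoq, Pparg and Plin1 lie below 5 CPM in the FMK libraries but not in the OPH libraries.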

Other observations

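Growth factor genes outside the EGF pathway differed in single members. Igf2, a fetal growth factor gene, was at 9283, 8842 and 9312 CPM with FMK and 5202, 5035 and 6327 CPM with OPH (-0.73 ± 0.08, adjusted p = 6.18e-05 by edgeR's quasi-likelihood test with Benjamini-Hochberg adjustment, as for all values here). Its binding protein gene Igfbp3 was at 1005, 1044 and 813 CPM with FMK and 610.0, 585 and 591 CPM with OPH (-0.68 ± 0.09, adjusted p = 0.000256). The related gene Igfbp7 was at 685, 743 and 742 CPM with FMK and 522, 542 and 596 CPM with OPH (-0.39 ± 0.08, adjusted p = 0.00612). All 3 were lower in every OPH library. The list had 3 of 17 called lower and 2 higher, beside 5.05% lower and 4.07% higher over all genes. The count called higher was 1 without FMK replicate 1 or 2 or OPH replicate 2, 4 without FMK replicate 3, without a low-count filter and in the libraries numbered 1 and 2 and 6 with the replicate block and with library size alone, and that called lower was 5 with the block. Of 25 BMP pathway genes 2 were called lower, the antagonist genes Grem1 and Chrdl2, and 2 higher, Chrdl1 and Id2. Grem1 was at 21.1, 19.5 and 19.4 CPM with FMK and 9.72, 7.18 and 11.1 CPM with OPH (-1.10 ± 0.21, adjusted p = 0.00452). Chrdl2 was at 6.97, 2.15 and 4.93 CPM with FMK and 0.423, 0.844 and 0 CPM with OPH (-3.37 ± 0.75, adjusted p = 0.0101). For Chrdl2 other fits gave adjusted p = 0.0514 to 0.0677 without FMK replicate 1 or OPH replicate 1. Chrdl1, an antagonist gene related to it, was higher (0.76 ± 0.21, adjusted p = 0.0347). Id2, a target gene of BMP signalling, was at 133, 137 and 116 CPM with FMK and 189.7, 179.5 and 191 CPM with OPH (0.54 ± 0.09, adjusted p = 0.00176). The list's count called higher was 1 in the libraries numbered 1 and 2 and without FMK replicate 1 or 2 or OPH replicate 1 or 3, 4 with all 9 libraries in the fit and without a low-count filter and 5 with the block and with library size alone. That called lower was 1 with a stricter low-count filter and without FMK replicate 1 or OPH replicate 1. Of 25 Wnt pathway genes and 30 limb patterning genes 1 each was called, Fzd1, a Wnt receptor gene (-0.43 ± 0.12), and Lhx9, a limb bud factor gene (-0.44 ± 0.12), both lower. Each is a smaller share than the 5.05% called lower over all genes. For Fzd1 other fits gave adjusted p = 0.0898 to 0.14 without FMK replicate 1 or OPH replicate 2 or 3, 0.0936 with library size alone and 0.0974 in the libraries numbered 1 and 2. For Lhx9 they gave adjusted p = 0.0547 to 0.151 without FMK replicate 1, 2 or 3 or OPH replicate 1 or 2, 0.111 with all 9 libraries in the fit and 0.1 with library size alone. Both lists had 4 called lower with the block.

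Of 40 genes of replication and mitosis 5 were called lower and 0 higher, beside 5.05% lower over all genes, among them Cdk1, the kinase gene of entry into mitosis (-0.42 ± 0.12), and Ccne1, a cyclin gene of entry into replication (-0.64 ± 0.18). The count was 0 with library size alone and without FMK replicate 2 or OPH replicate 2, 1 without FMK replicate 1, 2 without OPH replicate 1, 3 without FMK replicate 3 and 12 with the replicate block. Mki67, a marker gene of dividing cells, was at 28.03, 34.2 and 38.2 CPM with FMK and 18.0, 30.1 and 33.8 CPM with OPH (95% interval -0.76 to 0.17 on the log2 scale, adjusted p = 0.467). Of 40 lysosomal genes, beside the same 5.05% over all genes, 7 were called lower. They included Cd63, a membrane protein gene of late endosomes, at 1635, 1564 and 1649 CPM with FMK and 1140, 1169 and 1212 CPM with OPH (-0.46 ± 0.07, adjusted p = 0.00066). The 1 lysosomal gene higher was Ctss, beside macrophage markers with a median of 2.99, whose part in it was not tested. The list's count called lower was 4 without OPH replicate 2 and 12 with the replicate block, and that called higher was 3 with library size alone and 2 with the block, with all 9 libraries in the fit, without a low-count filter and without FMK replicate 3. Of 23 cholesterol genes 1 was called, near the 4.07% called higher over all genes, which was Insig1, a feedback regulator gene (1.24 ± 0.28, adjusted p = 0.0383). For Insig1 other fits gave adjusted p = 0.0642 to 0.16 without FMK replicate 1, 2 or 3 or OPH replicate 1 or 2, 0.0601 with all 9 libraries in the fit and 0.139 with limma-voom, which left none of the list called higher. Of the 7 genes of the mitochondrial genome tested, mt-Co1 was called lower (-0.34 ± 0.08). For mt-Co1 other fits gave adjusted p = 0.0608 without FMK replicate 1, 0.0842 without OPH replicate 2 and 0.0793 with library size alone, which left 0 of the list called, and the count was 2 without FMK replicate 2, 3 without a low-count filter and 4 with the block.

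In the authors' deposited table, 1306 of 13517 genes with an adjusted p for this pair were under 0.05, 606 higher and 700 lower with Q-VD-OPH. The calls shared with the test used here were 1095, which is 83.8% of those in the authors' deposited table and 94.2% of those here, and all 1095 had the same direction. The sizes of the fold changes differed. In the authors' deposited table the log2 fold changes of FMK over OPH were at most 3.83 in size and were -1.31 for Adipoq and -0.93 for Pck1, whereas the fit here gave 5.72 and 7.06 for OPH over FMK. How the authors' fold changes were computed is not given in the sources used here.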
